A study of Homo sapiens with 3 samples.

Results

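The regions described here are the chromosome 9 peaks of a chromatin immunoprecipitation sequencing (ChIP-seq) experiment on DKK-1 in the colorectal adenocarcinoma cell line DLD-1, which is of human origin and carries mutated APC. They were chosen by chromosome name from 2 lists that MACS made of the peaks of DLD-1/DKK-1, with DLD-1/Mock as the control in the first and input in the second, and their union held 711 of the 8723 peaks of the series. Selection therefore rested on the tag counts of that library and on the caller's P value cut-off of 1e-05, so tags, widths, scores and fold enrichments are given as descriptions, without tests. DLD-1/DKK-1 cells had been transduced with a lentivirus carrying V5-tagged human DKK-1 under a Tet-On (doxycycline-inducible) promoter, and DLD-1/Mock cells with a lentivirus without an ectopic gene. Per the study, parental DLD-1 cells lack endogenous DKK-1. Both immunoprecipitated libraries carry an anti-V5 antibody in their labels, whereas the study's methods name an antibody against DKK-1. The input library is labelled as a pool and had no antibody. The supplementary methods state that transduced cells were grown with doxycycline for DKK-1 expression, and the ChIP-seq methods do not mention it.

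DKK-1 is a secreted antagonist of Wnt signaling that binds the LRP co-receptors at the cell surface, and the study examined a fraction of the protein found in the nucleus. In ChIP-seq, DNA fragments that co-precipitate with a protein are sequenced, and MACS looks for places where the tags (aligned reads) exceed the number expected from a control library. A mock immunoprecipitation controls for DNA that the antibody and beads recover without the target, and input controls for chromatin that fragments, amplifies or aligns more readily. Chromosome 9 has a large block of heterochromatin next to its centromere, in which short reads can rarely be placed uniquely.

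The 3 libraries held 21312041 (DLD-1/DKK-1), 24151009 (DLD-1/Mock) and 27723787 (input) tags after duplicate removal. With 1 library per condition there was no replicate check, and intervals are exact 95% intervals that cover counting error only. The false discovery rate that MACS attached to the chromosome 9 peaks ran from 33.5% to 100% (median 45.4%) against mock and from 65.5% to 100% (median 76.7%) against input. Positions are in hg18.

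Chromosome 9 had more peaks against mock than against input. There were 613 peaks against mock and 330 against input, which gave 1.86 peaks against mock for each peak against input. That ratio was the third highest of 23 chromosomes, after chromosome 20 (4.50, from 54 and 12 peaks) and chromosome 7 (2.20, from 704 and 320 peaks). The other 22 chromosomes had a median ratio of 1.11, with chromosome 8 at 1.4 and chromosome 10 at 1.12. Between its first and last peak, chromosome 9 carried 4.38 peaks per Mb against mock and 2.36 against input, and the medians of the other chromosomes were 1.22 and 1.17. Chromosome 7 was close to it, at 4.53 and 2.06, and chromosome 8 was far denser, at 14.4 and 10.3. Chromosome 10 had fewer against mock (2.75) and slightly more against input (2.46).

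Of the 711 peaks, 381 were called against mock only, 232 against both controls and 98 against input only. Peaks against mock only made up 53.6% (interval 49.8 to 57.3%) of the chromosome 9 peaks, beside 39.5% over all chromosomes. Peaks against both controls made up 32.6% (29.2 to 36.2%), beside 36.6% over all chromosomes. Peaks against input only made up 13.8% (11.3 to 16.5%), beside 24.0% over all chromosomes. Of the 3 classes, the share of peaks against mock only was thus the one above that of the series, although the density of peaks against input was also above the median of the other chromosomes. Every peak called against both controls had the same coordinates and tags in both lists, since the DLD-1/DKK-1 tags behind both lists are the same, and such a peak is not a replicate observation.

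**Figure D1:**
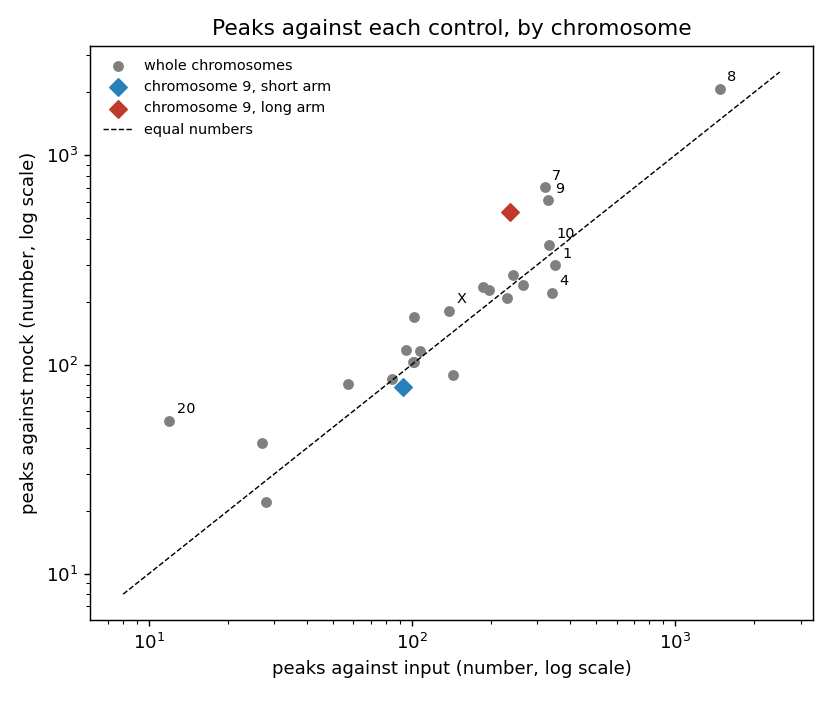
Peaks against DLD-1/Mock (vertical axis) and against input (horizontal axis), in number of peaks, for each chromosome, with diamonds for the arms of chromosome 9 and both axes logarithmic. Chromosome 9 (613 and 330) lies above the line of equal numbers.

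The peaks were unevenly spread along the chromosome. The short arm held 108 peaks and the long arm 603, which is 84.8% (82.0 to 87.4%) of the total, and 87.3% of the peaks against mock and 71.8% of those against input lay on the long arm. The peak-free stretch between the arms ran from 37961877 to 69100599, or 31.1 Mb, and includes the centromere. Outside it, the arms carried 2.84 (short) and 8.49 (long) peaks per Mb. Within the long arm, edges at 90 and 125 Mb were set after the counts per window had been seen. Below 90 Mb the long arm had 42 peaks (2.07 per Mb), between 90 and 125 Mb it had 260 (7.47 per Mb), and beyond 125 Mb it had 301 (20.1 per Mb). The stretch beyond 125 Mb held 42.3% of all chromosome 9 peaks.

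The surplus against mock was largest on the distal long arm. The short arm had 78 peaks against mock and 93 against input (ratio 0.839), and the long arm below 90 Mb had 35 and 23 (ratio 1.52). Between 90 and 125 Mb there were 234 against mock and 89 against input (ratio 2.63), and beyond 125 Mb there were 266 and 125 (ratio 2.13). On the short arm 58.3% (48.5 to 67.7%) of the peaks were called against both controls and 13.9% (7.99 to 21.9%) against mock only. On the long arm these shares were 28.0% (24.5 to 31.8%) and 60.7% (56.7 to 64.6%). The intervals of the arms did not overlap for either share. They count each peak as independent, although neighbouring peaks clustered, and a difference between the arms was not tested. Beyond 90 Mb lay 347 of the 381 peaks against mock only, 153 of the 232 against both controls and 61 of the 98 against input only.

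In windows of 5 Mb the 711 peaks fell into 24 of 29 windows, and the 5 empty windows were consecutive, from 40 to 65 Mb. The fullest window of the long arm, from 130 to 135 Mb, had 146 peaks, or 20.5% (17.6 to 23.7%) of the chromosome, with 133 against mock and 63 against input. Its neighbours at 125 to 130 Mb and 135 to 140 Mb had 82 and 72 peaks. Of 572 windows on the other chromosomes only 8 were fuller than the 130 to 135 Mb window, and among the 542 windows left when chromosome 8 was set aside the fullest held 76 peaks. The fullest window of the short arm, from 20 to 25 Mb, had 34 peaks, of which 26 were against mock, 30 against input and 22 against both. The emptiest short-arm window with peaks, from 35 to 40 Mb, had 5, each called against both controls. The emptiest long-arm window with peaks, at 65 to 70 Mb, had 1 peak. The last window, from 140 Mb to the end of the chromosome, also had 1 peak, but it may be shorter than 5 Mb, so its count is not comparable.

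From 90 to 140 Mb, each of the 10 windows held 16 to 83 peaks against mock only (median 26.5). In the 13 windows with peaks below 90 Mb the number was 0 to 6 (median 2). Peaks against both controls numbered 4 to 50 per window (median 12) from 90 to 140 Mb and 0 to 22 (median 5) below 90 Mb. Peaks against mock only were found along the whole distal arm. Of the 49 windows of 1 Mb from 91 to 140 Mb, 48 had at least 1 peak against mock only, compared with 13 of the 21 windows from 70 to 91 Mb and 10 of the 38 windows from 0 to 38 Mb. Peaks against both controls were nearly as widespread from 91 to 140 Mb, in 42 of the 49 windows, and at this density few windows could be empty. Among windows with peaks in each list, the highest ratios of peaks against mock to peaks against input were at 90 to 95 Mb (30 and 7, ratio 4.29) and 95 to 100 Mb (39 and 10, ratio 3.90). From 100 to 125 Mb the 5 windows held 24 to 46 peaks each. The window from 85 to 90 Mb, next to this stretch, had 16 peaks against mock and 17 against input. The 7 peaks nearest to the centromere on the long arm, between 65 and 75 Mb, were all called against mock only.

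**Figure D2:**
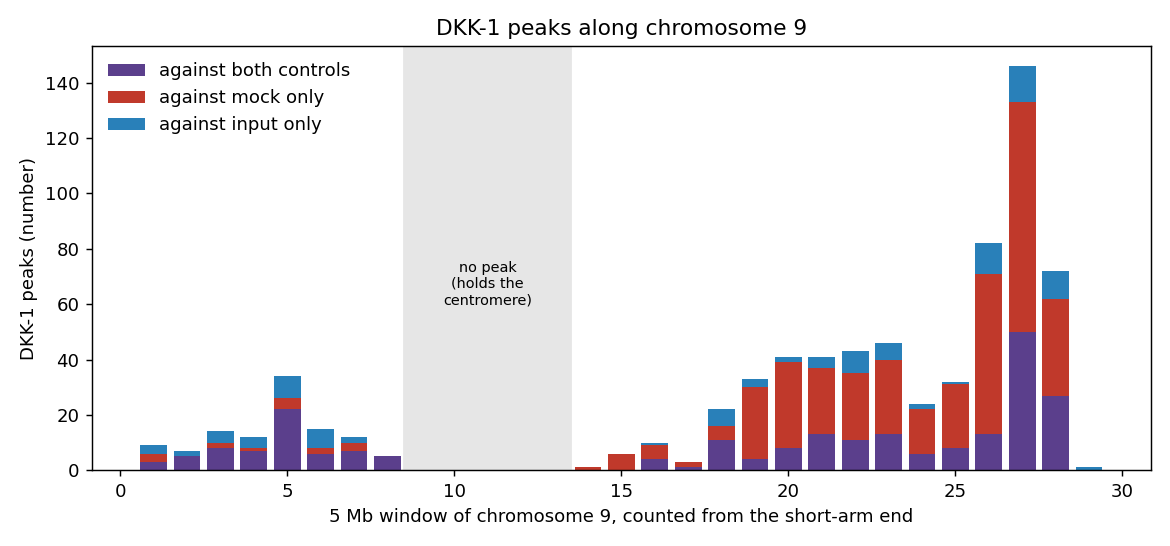
Number of peaks in each 5 Mb window of chromosome 9, numbered from the end of the short arm and stacked by the control they were called against. Window 27, from 130 to 135 Mb, is the tallest, with 146 peaks, of which 83 were against mock only.

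Neighbouring peaks lay close together at the end of the long arm. The median distance from a peak to the next was 54937 bp over the chromosome, 178468 bp on the short arm, 85833 bp from 90 to 125 Mb and 25199.5 bp beyond 125 Mb. There were 34 pairs of neighbours within 1000 bp of each other, 22 of them beyond 125 Mb. On the short arm, 29 of its 108 peaks lay between 21 and 22 Mb, 19 of them called against both controls. A stretch of 2.72 Mb without a peak followed them, from 21860135 to 24582576. The widest stretch without a peak inside the long arm ran from 81594906 to 84455063 (2.86 Mb).

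Peaks on chromosome 9 held 12 to 240 tags with a median of 17 (interval 17 to 18) and were 221 to 2480 bp wide with a median of 507 bp (494 to 520 bp). The medians over the other chromosomes together were 16 tags and 470 bp, but chromosome 8 (17 tags, 510 bp) was like chromosome 9. Chromosome 7 had the same median of 17 tags, with narrower peaks (483 bp). Peaks with at least 20 tags made up 35.3% of the chromosome 9 peaks and 25.6% of those elsewhere, whereas peaks with at least 50 tags made up 1.27% and 1.60%. Median tags and width were 16 and 475.5 bp on the short arm, 16 and 489.5 bp from 90 to 125 Mb, and 19 and 550 bp beyond 125 Mb. Peaks against both controls had a median of 19 tags (18 to 21) and 532.5 bp, compared with 17 tags and 506 bp for peaks against mock only and 16 tags and 487 bp for peaks against input only. On the other chromosomes the medians of the same classes were 17, 16 and 15 tags. Wider peaks held more tags, with Spearman's rho of 0.916 across the 711 peaks, which share a library and the caller's rules.

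**Figure D3:**
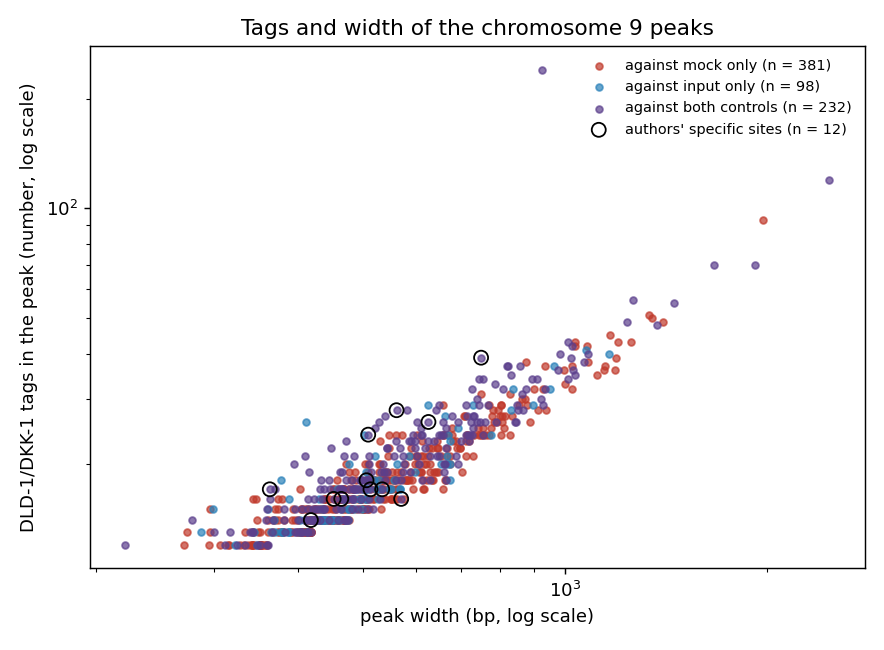
Width in bp against tags for the chromosome 9 peaks, colored by the control they were called against, with rings around the 12 specific sites and both axes logarithmic. The peaks run from 12 to 240 tags and from 221 to 2480 bp.

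Fold enrichment had a median of 7.60 (3.92 to 15.11) against mock and 7.42 (3.53 to 20.27) against input. A fold of at least 10 was reached by 48 of 613 peaks against mock (7.83%, beside 9.12% over all chromosomes) and by 25 of 330 against input (7.58%, beside 9.60%). A score of at least 100, which is a P value of 1e-10 or less, was reached by 25 peaks against mock (4.08%, beside 3.48% over all chromosomes) and 16 against input (4.85%, beside 2.94%). Peaks of high fold were thus no larger a share than over the series, and peaks of high score a slightly larger one.

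Because a peak in both lists has the same tags, the ratio of its 2 fold enrichments reports the tags expected from input divided by those expected from mock. Its median over the 232 such peaks was 1.06, with 131 above 1, 38 at 1 and 63 below 1, so that 56.5% (49.8 to 62.9%) were above 1. On the other chromosomes the median was 1.0 and 43.4% were above 1. Chromosome 7 had a higher median (1.07) and share above 1 (65.5%) than chromosome 9, and chromosome 8 had 1.02 and 55.1%. The short arm had a median of 1.0, with 31.7% (20.6 to 44.7%) above 1. The long arm had a median of 1.10, with 65.7% (58.0 to 72.8%) above 1. The same stretch that had the largest surplus against mock therefore had more tags expected from input than from mock at its shared peaks. Its medians were 1.10 from 90 to 125 Mb and 1.10 beyond 125 Mb. The part of this in the surplus was not tested.

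**Figure D4:**
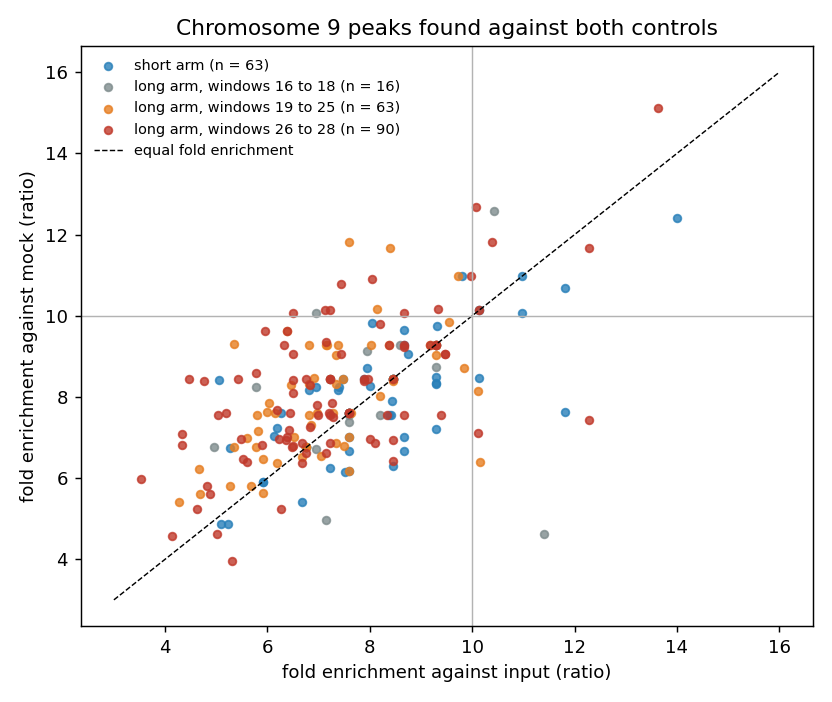
Fold enrichment against mock and against input for the peaks called against both controls, by stretch of the chromosome, both in ratios. Beyond 125 Mb, which is windows 26 to 28, 64 of the 90 shared peaks had the higher fold against mock, whereas on the short arm 20 of 63 had.

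MACS takes the expected tags from the genome-wide background wherever the control near the peak is no denser than that. A fold is then a whole number of tags divided by 1.18 tags, the background per fragment length of 150 bp. Within a tolerance of 0.006 tags, 50.5% (40 to 61.1%) of the folds against input had that form on the short arm, 20.2% (12.4 to 30.1%) from 90 to 125 Mb and 18.4% (12 to 26.3%) beyond 125 Mb. Against mock the shares were 42.3% (31.2 to 54.0%), 33.8% (27.7 to 40.2%) and 30.1% (24.6 to 36.0%). The distal long arm thus had locally raised expectations more often than the short arm against input, whereas against mock the intervals overlapped.

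The strongest peaks differed in which control they stood out from. A high score did not come with a low false discovery rate. The 5 peaks with the highest score against mock each had a rate of 100% in that list, as did the 5 highest against input in theirs. The peak with the most tags, chr9:78376064-78376986, had 240 tags (Poisson interval 211 to 272), a fold of 4.63 against mock and a fold of 11.41 against input. Its score was 52.03 against mock and 537.01 against input, the highest against input on the chromosome. The highest score against mock belonged to chr9:129246968-129249447, which had 120 tags (99.5 to 143) over 2480 bp, with scores of 312.02 against mock and 144.72 against input. The peak chr9:130355420-130357394, with 93 tags, was called against mock only (fold 5.94). The most tag-rich peak of the short arm, chr9:21580812-21582480, had 70 tags (54.6 to 88.4), folds of 8.41 against mock and 5.06 against input, and lay 31116 bp before the start of LOC554202. The other peak with 70 tags, chr9:134497702-134499620, had folds of 6.61 and 7.14.

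Fold enrichment picked out other peaks. The highest fold against input, 20.27, was at the first bases of the assembled chromosome, chr9:105-515, where 26 tags were called against input only. The highest fold against mock, 15.11, was at chr9:131592397-131593146, which had 39 tags and a fold of 13.63 against input. By score against mock it was followed by chr9:95254867-95255903, with 43 tags and a fold of 11.62, which was called against mock only. By score against input the fifth was chr9:139436241-139437096, with 37 tags and folds of 6.97 against mock and 8.01 against input. Of the 12 most tag-rich peaks, 9 lay beyond 125 Mb and 8 were called against both controls. A fold of at least 10 in 1 list alone was reached by 14 of the 232 shared peaks against mock and by 7 against input, and by 22 of the 381 peaks against mock only and 6 of the 98 against input only.

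The authors' list of specific peaks held 12 chromosome 9 peaks. The sources used here do not state its rule, but its 200 sites were the 200 peaks of the series with a fold of at least 10 in both lists, so their folds are given as a description. That is 1.69% (0.875 to 2.93%) of the union on this chromosome, beside 2.29% over all chromosomes. The short arm had 5 of these sites and the long arm 7, of which 2 lay below 90 Mb, 0 between 90 and 125 Mb and 5 beyond 125 Mb. They had 14 to 39 tags (median 17) and widths of 363 to 750 bp. Their false discovery rate was 34.19 to 100% (median 44.1%) against mock and 69.15 to 100% (median 96.7%) against input. The medians over all chromosome 9 peaks were 45.4% and 76.7%. Just inside a fold of 10 was chr9:30805329-30805841 (10.08 against mock and 10.98 against input), and just outside it was chr9:131645850-131646537 (10.98 and 9.98).

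A gene was given for 6 of the 12 sites, or 50% (21.1 to 78.9%), and for 41.0% (33.9 to 48.3%) of the 188 sites on other chromosomes. On the short arm, GLDC, a mitochondrial enzyme that breaks down glycine, had an intronic site at chr9:6624551-6625014 with 16 tags and a fold of 10.98 against each control. LOC554202, named MIR31HG in RefSeq, is a long noncoding RNA that hosts a microRNA. Its intronic site at chr9:21514722-21515173 had 16 tags and folds of 10.68 against mock and 11.82 against input. On the long arm, DAPK1, a calmodulin-regulated kinase that promotes cell death, had an intronic site at chr9:89426802-89427335 with 17 tags and a fold of 10.14 against each control.

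The other 3 sites with a gene were beyond 125 Mb. GOLGA1, a coiled-coil protein of the trans-Golgi network, had an intronic site at chr9:126710710-126711072 with 17 tags and folds of 12.67 against mock and 10.08 against input. LOC100289019, named SLC25A25-AS1 in RefSeq, is an antisense noncoding RNA. Its site at chr9:129919735-129920243 had 24 tags and folds of 11.68 and 12.29, is placed in exon 2 by the list, and also overlapped exon 1 by the coordinates in that list. WDR34, named DYNC2I2 in RefSeq and part of a ciliary dynein motor, had an intronic site at chr9:130441372-130441877 with 18 tags and folds of 11.82 and 10.38. A list of 20 cancer-related genes of this chromosome was also looked up by symbol, in the list of specific peaks only. Of these genes, LOC554202 and DAPK1 had a specific site. Among the 18 without a specific site were CDKN2A, CDKN2B, MTAP, JAK2, CD274, PTCH1, TSC1, NOTCH1, ABL1, SYK, KLF4, TGFBR1, GNAQ, NTRK2, PTPRD, ALDH1A1 and ENG. The lists of all peaks hold no gene names, so whether other peaks lie at these genes was not looked up. The list was drawn up with the sites of LOC554202 and DAPK1 already known, so the count has no baseline.

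The other 6 sites had no gene. Beside chr9:131592397-131593146, described above, chr9:88006888-88007448 had 28 tags and folds of 12.59 against mock and 10.43 against input. The site chr9:17053495-17054120 had 26 tags and folds of 12.41 and 14.01. The sites chr9:24582576-24583145 (16 tags) and chr9:131969972-131970389 (14 tags) each had a fold of 10.14 against both controls, and chr9:30805329-30805841 had 17 tags.

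The 6 transcripts were overlapped by 19 peaks in all, of which 13 were called against both controls, 5 against mock only and 1 against input only. The 6 specific sites are in both lists by construction, and of the other 13 peaks 7 were called against both controls, beside 32.6% of all chromosome 9 peaks. The transcripts were chosen for holding a specific site, so their counts are a description. LOC554202 had 7 peaks of 16 to 23 tags, 6 of them against mock and 6 against input, or 6.64 per 100 kb of transcript, within the 21 to 22 Mb window that had 2.90 per 100 kb. Most other peaks of that window lay before the transcript start, from 21555927 to 21860135. The cluster thus ran past the gene, and the window average is not the density of its flank. WDR34 (12.9) and LOC100289019 (13.2) had more per 100 kb, from 3 peaks and 1 peak in far shorter transcripts, and GOLGA1 had 6.37. All 7 peaks of LOC554202 lay in introns, 12072 to 38407 bp from the nearest exon. DAPK1 had 3 peaks, each against both controls, of 13, 13 and 17 tags. GLDC and LOC100289019 had no peak besides the specific site.

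Peaks touched exons in 3 cases. In GOLGA1, chr9:126680716-126681783 lay in exon 23, the last, outside the coding part, with 38 tags and folds of 10.07 against mock and 6.50 against input. In WDR34, chr9:130458937-130459743 covered the transcript start, with 26 tags and a fold of 7.60, and was called against mock only. It was the only peak of the 19 that covered a transcript start. A second WDR34 peak, chr9:130458069-130458548, was centred 641 bp inside the transcript and was also called against mock only, with 18 tags. The third exonic peak was the specific site in LOC100289019. GOLGA1 had 2 further peaks against mock only, of 16 and 20 tags, the first 651 bp from its specific site.

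**Figure D5:**
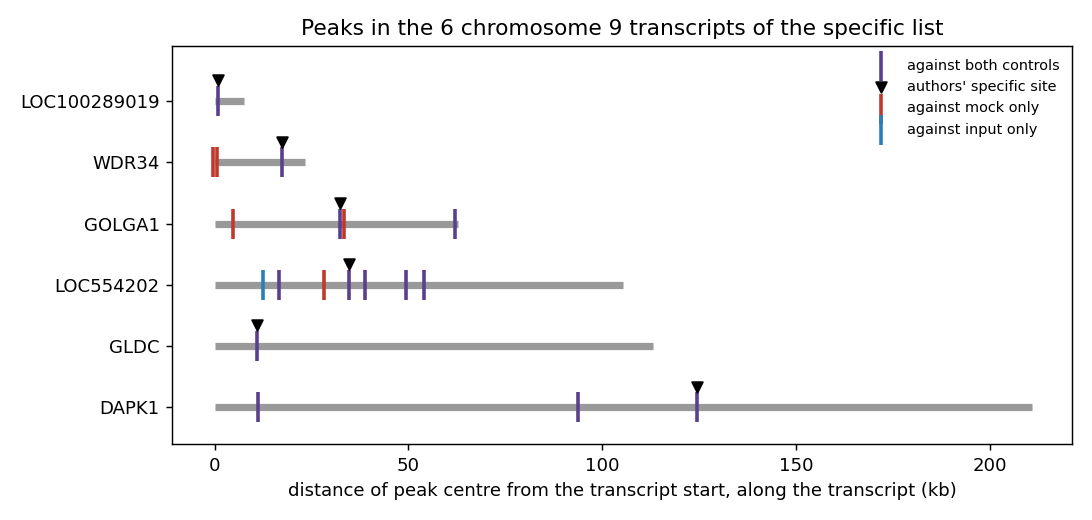
Peaks in the 6 transcripts given for chromosome 9 sites, by distance of the peak centre from the transcript start in kb. Colors give the control each peak was called against and triangles the specific sites. LOC554202 has 7 peaks, the most of the 6.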

How the data were processed

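ChIP-seq was done on DLD-1/DKK-1, DLD-1/Mock and input, 1 library each. Per the study's methods, the authors aligned reads to hg18 with ELANDv2 in CASAVA 1.7, kept unique alignments and called peaks with MACS (1.4.0beta in the file headers) at a P value cut-off of 1e-05. The deposited lists give tag counts per peak, a score (the negative log10 of the P value times 10), a fold enrichment (a ratio of tags to expected tags) and a false discovery rate in percent. The genome-wide background in the fold is per fragment length of 150 bp, whereas the tag count covers the whole peak. A peak's tag count divided by its fold therefore does not give the expected tags. The tag counts are of DLD-1/DKK-1 after at most 2 tags per position were kept. The authors' specific list pairs sites with genes.

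From these files, peaks named chromosome 9 were joined where start and end were the same, and counted in 5 Mb windows and by arm (Python 3.11.15, pandas 2.3.3, scipy 1.17.1). Shares have Clopper-Pearson intervals and tags exact Poisson intervals. No test was run, since there was 1 library per condition. The counting steps were tested on simulated data (10 of 10 checks recovered). Named peaks were every specific site, the 5 highest by score in each list, the 5 with most tags, and the fullest and emptiest windows of each arm. Peaks just inside and outside a fold of 10, the highest fold against input and the peaks in the 6 transcripts were added after values were seen. Newer gene names came from RefSeq (GRCh38.p14), which matched 6 of 6 transcripts, and none of its coordinates were used. The members and lists were chosen with earlier results of these data known.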

Additional observations from a re-analysis of the deposited data

How the results depend on the processing

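Of 46 alternative values, 26 stayed within the limits set (counts and ratios within 1.5 times, shares and medians within their intervals) and 20 did not. With peaks of P at 1e-10 or less there were 34 peaks, 25 against mock, 16 against input and 7 against both, the fullest window held 35.3%, median tags were 36.5 and median width 929 bp, and 2 specific sites were left, with a gene for 0%. With a fold of at least 10 there were 61 peaks, 48 against mock, 25 against input and 12 against both, the long arm held 80.3%, and medians were 19 tags and 562 bp. Windows shifted by 2.5 Mb put 16.6% in the fullest. Peaks in both lists alone had medians of 19 tags and 532.5 bp. Without the window from 130 to 135 Mb, left out after the data had been seen, the long arm held 80.9%. The ratio of peaks against mock to input stayed at 1.56 to 1.92 in all alternatives, below 1 on the short arm and at 2.20 to 3.08 beyond 90 Mb. How far the ratio of chromosome 9 exceeded that of the series depended on the cut-off. With peaks of P at 1e-10 or less it was 1.56, only slightly above the ratio over all chromosomes at that cut-off. With a fold of at least 10 it was 1.92, well above the ratio over all chromosomes. Other overlap rules and the arm boundary could not move a value. No paired analysis was possible because DLD-1/DKK-1, DLD-1/Mock and input were sequenced as 1 library each, without a test. Depth limits these results to peaks of 12 tags or more, and 98 of the 711 had 13 or fewer.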
